A study of Mus musculus with 2 samples.

Results

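Mirlet7a-1, Mirlet7a-2, Mirlet7c-1, Mirlet7c-2, Mirlet7f-1 and Mirlet7f-2 are the 6 mouse let-7 genes whose mature microRNA is encoded at 2 places in the genome. They were picked by name for that property, which is one of sequence and not of their counts, among the 2202 miRNA genes of each count table, and all 6 were found. The tables come from microRNA sequencing of total RNA inserts shorter than 30 nt from the hearts of 10-day-old female B6CASTF1/J mice, which are first-generation hybrids of the inbred strains C57BL/6J and CAST/EiJ. There was 1 group of 2 hearts, biological replicates 1 and 2, each with its own biosample record and 1 library. Both biosamples point to the same donor record in the labels, so the SD given with n = 2 is the spread between these 2 samples, which were taken to be hearts of different animals. The labels name no treatment, mutation, other tissue or other age, so the measurements describe levels, ratios between genes of the same library and differences between the hearts.

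The let-7 miRNAs are a family found in animals from worms to mammals. Each is cut from a hairpin precursor by Drosha and Dicer, and the arm nearest the 5′ end (5p) is usually the one loaded into Argonaute, where its seed, bases 2 to 8, pairs with target mRNAs. The family is known for rising as tissues differentiate and for repressing growth-promoting genes, and LIN28 holds it back in early embryos by binding the loop of let-7 precursors.

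The mature 5p forms are shown first because both copies of a pair encode the same letters, with the seed in capitals. The sequences are from RefSeq on GRCm38.p6, the patched release of mm10.
let-7a-5p (Mirlet7a-1 and Mirlet7a-2): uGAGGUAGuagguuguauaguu
let-7c-5p (Mirlet7c-1 and Mirlet7c-2): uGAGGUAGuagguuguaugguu
let-7f-5p (Mirlet7f-1 and Mirlet7f-2): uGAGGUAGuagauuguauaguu
Counting from 1 at the 5′ end, let-7c-5p differed from let-7a-5p by A19G, and let-7f-5p differed from let-7a-5p by G12A. All 3 forms share the seed GAGGUAG, which the annotated mature forms of 14 genes of the table carried. These were the 12 let-7 genes compared here (Mir98 included), Mir7k and Mir1961. Mir7k and Mir1961 were left out of the let-7 genes in all comparisons below. The table used gave Mirlet7a-2 no 5p entry of its own, and the letters of let-7a-5p were found in its hairpin.

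The opposite arm (3p), with its bases 2 to 8 in capitals, separates most of the copies that the 5p arm does not.
let-7a-1-3p and let-7c-2-3p: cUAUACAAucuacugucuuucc
let-7a-2-3p: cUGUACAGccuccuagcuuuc
let-7c-1-3p: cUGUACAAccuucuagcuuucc
let-7f-1-3p: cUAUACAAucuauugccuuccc
let-7f-2-3p: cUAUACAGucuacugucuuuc
Mirlet7a-1 and Mirlet7c-2 also share their 3p letters, although their 5p forms differ by 1 base. Neither arm of these genes is thus its own. The 3p forms of Mirlet7a-2, Mirlet7c-1, Mirlet7f-1 and Mirlet7f-2 each had letters found in no other gene's hairpin.

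The whole hairpins are shown with both mature arms in capitals, since the lower-case letters around the arms are what tells the copies apart.
Mirlet7a-1: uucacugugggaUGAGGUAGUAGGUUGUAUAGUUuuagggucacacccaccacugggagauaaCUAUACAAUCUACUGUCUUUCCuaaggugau
Mirlet7a-2: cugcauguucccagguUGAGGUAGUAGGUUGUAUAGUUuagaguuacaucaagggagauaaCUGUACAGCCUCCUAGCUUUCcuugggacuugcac
Mirlet7c-1: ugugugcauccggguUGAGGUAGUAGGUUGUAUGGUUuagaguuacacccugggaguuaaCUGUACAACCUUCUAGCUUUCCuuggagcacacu
Mirlet7c-2: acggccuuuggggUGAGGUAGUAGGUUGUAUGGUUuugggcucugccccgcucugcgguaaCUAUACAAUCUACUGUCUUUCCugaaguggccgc
Mirlet7f-1: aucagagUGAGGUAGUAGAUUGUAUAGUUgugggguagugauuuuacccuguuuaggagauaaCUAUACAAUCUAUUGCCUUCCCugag
Mirlet7f-2: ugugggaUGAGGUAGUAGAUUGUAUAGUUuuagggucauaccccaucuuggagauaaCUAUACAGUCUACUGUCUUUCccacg
The hairpins were 83 nt (Mirlet7f-2) to 96 nt (Mirlet7a-2) long. Their G and C content ran from 39.3% in Mirlet7f-1 to 53.7% in Mirlet7c-2.

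The genes lie at 5 loci of mm10. Mirlet7a-1 (chr13:48538179-48538272, minus strand) and Mirlet7f-1 (chr13:48537829-48537917, minus strand) sit 262 bp apart in an exon of the lincRNA 6720427I07Rik, with Mirlet7d further along the same strand. Mirlet7a-2 (chr9:41536716-41536811, plus strand) lies in introns of the noncoding genes 3110039I08Rik and Gm49317, between Mir100 and Mir125b-1. Mirlet7c-1 (chr16:77599657-77599750, plus strand) lies in an intron of Mir99ahg, the host transcript of Mir99a and Mir125b-2. It also lies across from an intron of the protein-coding gene Gm11146 on the other strand. Mirlet7c-2 (chr15:85706603-85706697, plus strand) overlaps an exon of the noncoding gene Lncppara, 622 bp from Mirlet7b. Mirlet7f-2 (chrX:151912346-151912428, plus strand) lies in an intron of Huwe1, which encodes a ubiquitin ligase, 786 bp from Mir98.

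The loop between the arms held the letters GGAG, known from LIN28 binding, in 5 of the 6 hairpins and in 4 of the 6 other let-7 hairpins. It was absent from the loop of Mirlet7c-2 among the members, and from those of Mirlet7b and Mir98 among the others. The letters were searched on the gene strand only, the strand that gives the RNA, and they occurred in 8.07% of the 644 loops between annotated arms of RefSeq hairpins. Those loops are shorter (median 16 nt) than the members' loops (23 to 34 nt).

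Replicate 1 had 10782737 reads and replicate 2 had 10201509, of which 4260561 (39.5%) and 4583025 (44.9%) were counted on the gene strand of named miRNA genes. A further 4193785 reads (38.9%) in replicate 1 and 3872896 reads (38.0%) in replicate 2 were placed at more than 1 position, and the tables keep these in a separate row that is assigned to no gene. Of 7 heart muscle miRNA genes, Mir499 was at 4784 ± 931 CPM, Mir208a at 2162 ± 1125 CPM and Mir208b at 1144 ± 143 CPM (SD, n = 2). The other heart muscle genes had low counts, with Mir1a-2 at 48.4, Mir133a-1 at 5.18, Mir1a-1 at 2.60 and Mir133a-2 at 1.14 CPM. Like all counts here, these leave out reads placed at more than 1 position. A low count therefore does not show that the mature miRNA was scarce. Of 6 brain miRNA genes, 5 had 0 counts and Mir9-3 had 0 in replicate 1 and 2 in replicate 2. Markers of other tissues were also counted, with Mir451a (red cells) at 376 CPM, Mir142 (white cells) at 154 CPM and Mir122 (liver) at 109 CPM. CPM is the count on a gene scaled to 1e+06 gene-strand counts on named genes. In bulk tissue, fewer cells of a type and less RNA per cell cannot be told apart.

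The 6 genes held a small part of the let-7 counts, and most of that part was 1 gene. Together they had 34099 counts in replicate 1 and 30391 in replicate 2, against 1063091 and 905290 counts for the other 6 let-7 genes (Mirlet7b, Mirlet7d, Mirlet7e, Mirlet7g, Mirlet7i and Mir98). This was 3.11% of the counts of the members and these genes together in replicate 1 (exact 95% Clopper-Pearson interval 3.08 to 3.14). In replicate 2 it was 3.25% (3.21 to 3.28). In all, the members averaged 7317 ± 970 CPM and the other let-7 genes 223525 ± 36761 CPM (SD, n = 2). Mirlet7f-2 alone gave 70.3% and 68.0% of the members' counts in replicates 1 and 2. For every count on the 6 genes there were 123 multimapping reads in replicate 1 and 127 in replicate 2. How many of those reads carried let-7 letters cannot be told from the tables, so the levels below are levels of uniquely placed reads and not of let-7a, let-7c or let-7f RNA. The intervals cover counting error within each library only. No molecular identifiers are described, so copies of a molecule made in amplification count as separate reads and the intervals may be too narrow.

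Mirlet7f-2, one source of let-7f, was the most abundant member. It had 23987 counts in replicate 1 and 20651 in replicate 2, or 5630 and 4506 CPM, which put it at rank 31 of 2202 by mean CPM. Both hearts lay above the values of the other 5 members. Mirlet7c-2, one source of let-7c, followed with 4319 and 4410 counts, or 1014 and 962 CPM (rank 79). Its hearts lay close together, at 988 ± 36.4 CPM (SD, n = 2).

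Mirlet7a-1, one source of let-7a, had 2112 and 1937 counts, or 496 and 423 CPM (rank 101). Mirlet7c-1, the other source of let-7c, had 1810 and 1842 counts, or 425 and 402 CPM (rank 106). Mirlet7a-1 was the higher of these genes in both hearts, with exact 95% intervals apart in replicate 1 (475 to 517 against 405 to 445 CPM) and overlapping in replicate 2 (404 to 442 against 384 to 421 CPM). Mirlet7a-2, the other source of let-7a, had 907 and 856 counts, or 213 and 187 CPM (rank 134). Mirlet7f-1, the other source of let-7f, had 964 and 695 counts, or 226 and 152 CPM (rank 138). Mirlet7a-2 was below Mirlet7f-1 in replicate 1 and above it in replicate 2, so the hearts gave no common order for this pair. The remaining steps in the order were larger than the spread of the hearts, at 5.13 times between the means of Mirlet7f-2 and Mirlet7c-2, 2.15 times between Mirlet7c-2 and Mirlet7a-1 and 2.07 times between Mirlet7c-1 and Mirlet7a-2.

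**Figure D1:**
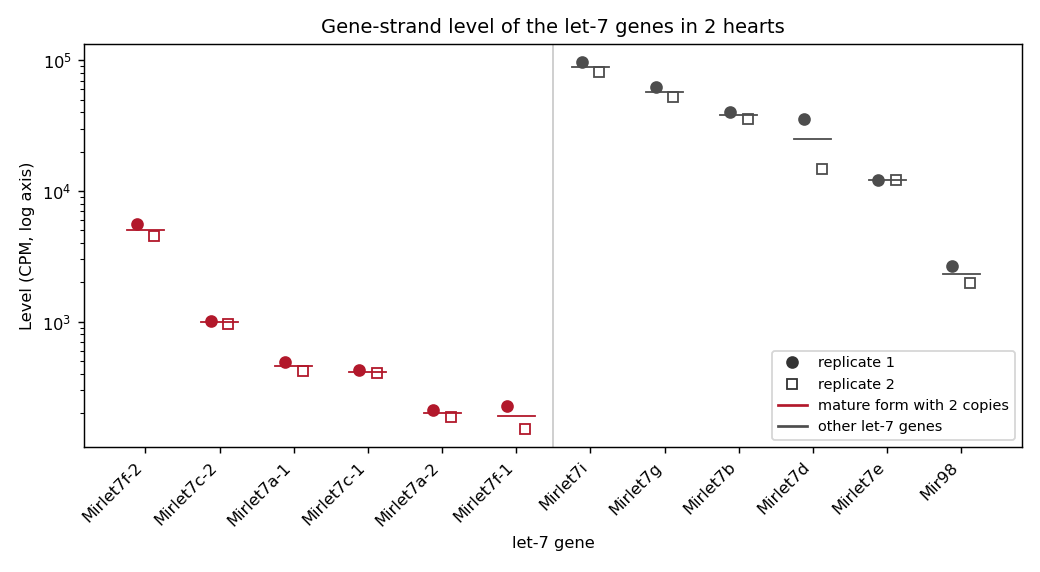
Level of each let-7 gene in CPM on a log axis, with 1 point per heart and a line at the mean, for the 6 genes whose mature form has 2 copies (left) and the other 6 let-7 genes (right). Mirlet7f-2 (5068 CPM on average) lies above Mir98 (2319 CPM), and the other 5 members lie between 189 and 988 CPM, below every single-copy let-7 gene.

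Mirlet7f-2 was the one member that reached the range of the single-copy let-7 genes, which ran from 2319 ± 491 CPM for Mir98 to 88800 ± 10853 CPM for Mirlet7i. No member had a read on the opposite strand. Strand mattered for 1 of them. Mirlet7f-1 is overlapped on the opposite strand by Gm24111, an annotated miRNA gene with 0 counts of its own, and in the column that ignores strand Mirlet7f-1 had 0 counts in both hearts. The counts of the other 5 members were the same in both columns.

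The genes outside the let-7 family with the most similar levels over both libraries were found by distance in log2(CPM + 1). They were Mir499 for Mirlet7f-2 (distance 0.14), Mir181c for Mirlet7c-2 (0.12), Mir490 for Mirlet7a-1 (0.17), Mir874 for Mirlet7c-1 (0.095), Mir450b for Mirlet7a-2 (0.15) and Mir181a-1 for Mirlet7f-1 (0.13). With 2 libraries this says only that the levels lie side by side.

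In each of the 3 pairs 1 copy had clearly more counts, and the same copy in both hearts. For let-7a, Mirlet7a-1 had 2.33 times the counts of Mirlet7a-2 in replicate 1 and 2.26 times in replicate 2. The log2 ratio was 1.22 (exact 95% interval 1.11 to 1.33) and 1.18 (1.06 to 1.30), so Mirlet7a-1 held 70.0% and 69.4% of the pair's counts. For let-7c the order was turned, and Mirlet7c-1 held 29.5% of the pair's counts in each heart. The log2 ratio of Mirlet7c-1 over Mirlet7c-2 was -1.25 (-1.33 to -1.18) in replicate 1 and -1.26 (-1.34 to -1.18) in replicate 2. In both pairs the intervals of the hearts overlapped, and the difference between the hearts was not tested.

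The let-7f pair was the most unequal. Mirlet7f-1 held 3.86% of the pair's counts in replicate 1 and 3.26% in replicate 2, and Mirlet7f-2 the rest. The log2 ratio of Mirlet7f-1 over Mirlet7f-2 was -4.64 (-4.73 to -4.54) in replicate 1 and -4.89 (-5.00 to -4.78) in replicate 2. These intervals did not overlap, and the mean was -4.76 ± 0.18 (SD, n = 2). With 2 hearts a two-sided exact sign permutation cannot go below p = 0.5, so no test over animals was made for any pair.

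Other miRNA pairs with an identical mature form spanned the same range of ratios. Of the pairs found with the RefSeq mature forms used, 14 had at least 10 counts of both copies in both hearts. Their absolute log2 ratio had a median of 0.77, from 0.026 for Mir450-1 and Mir450-2 to 6.94 for Mir181b-1 and Mir181b-2. The order of the copies was the same in both hearts in 12 of the 14. The let-7a and let-7c pairs thus lay above that median, and the let-7f pair below Mir181b and the Mir92 pair, whose log2 ratio of Mir92-1 over Mir92-2 averaged 5.47. The 3 let-7 pairs were not tested against the others.

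**Figure D2:**
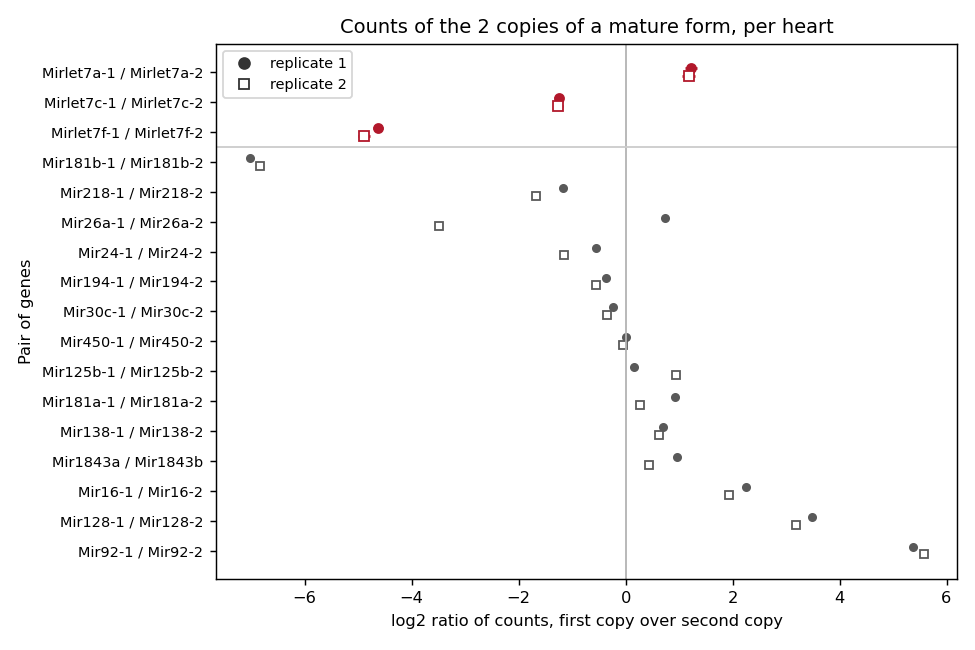
The log2 ratio of the counts of the first copy over the second copy in each heart (circle replicate 1, square replicate 2), for the 3 let-7 pairs in red above the line and 14 other pairs with an identical mature form below it. The let-7a and let-7c ratios sit near 1.20 and -1.26 in both hearts, and the let-7f ratio sits between -4.89 and -4.64.

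Reading from the first base of the 5p form, the copies of let-7a and of let-7c stay identical for 23 nt and those of let-7f for 22 nt, while the mature form is 22 nt long. A read that starts there is found in 1 hairpin only from 24 nt on for Mirlet7a-1, Mirlet7a-2, Mirlet7c-1 and Mirlet7c-2, and from 23 nt on for Mirlet7f-1 and Mirlet7f-2. From the first base of the 3p form, 18 nt were enough for Mirlet7a-2, Mirlet7c-1, Mirlet7f-1 and Mirlet7f-2, but 24 nt were needed for Mirlet7a-1 and Mirlet7c-2. Every arm of the other 6 let-7 genes was found in 1 hairpin from 18 nt on. These lengths refer to the hairpins of the table with exact matching. The rest of the genome, CAST/EiJ variants and the lengths of the reads were not analysed here.

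Most windows of the hairpins were distinct even so. Of 3825 windows of 18 to 26 nt in the 6 hairpins, 3580 (93.6%) were found at 1 place among all hairpins and 245 at more. The share at 1 place was lowest for Mirlet7a-1 (88.4%) and Mirlet7c-2 (89.6%), and 95.4% to 96.6% for the other members. At 22 nt, 7 of 73 windows of Mirlet7a-1 and 7 of 74 of Mirlet7c-2 were shared, 2 each of Mirlet7a-2 and Mirlet7c-1, and 1 each of Mirlet7f-1 and Mirlet7f-2. The shared windows are few but include the mature forms themselves.

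**Figure D3:**
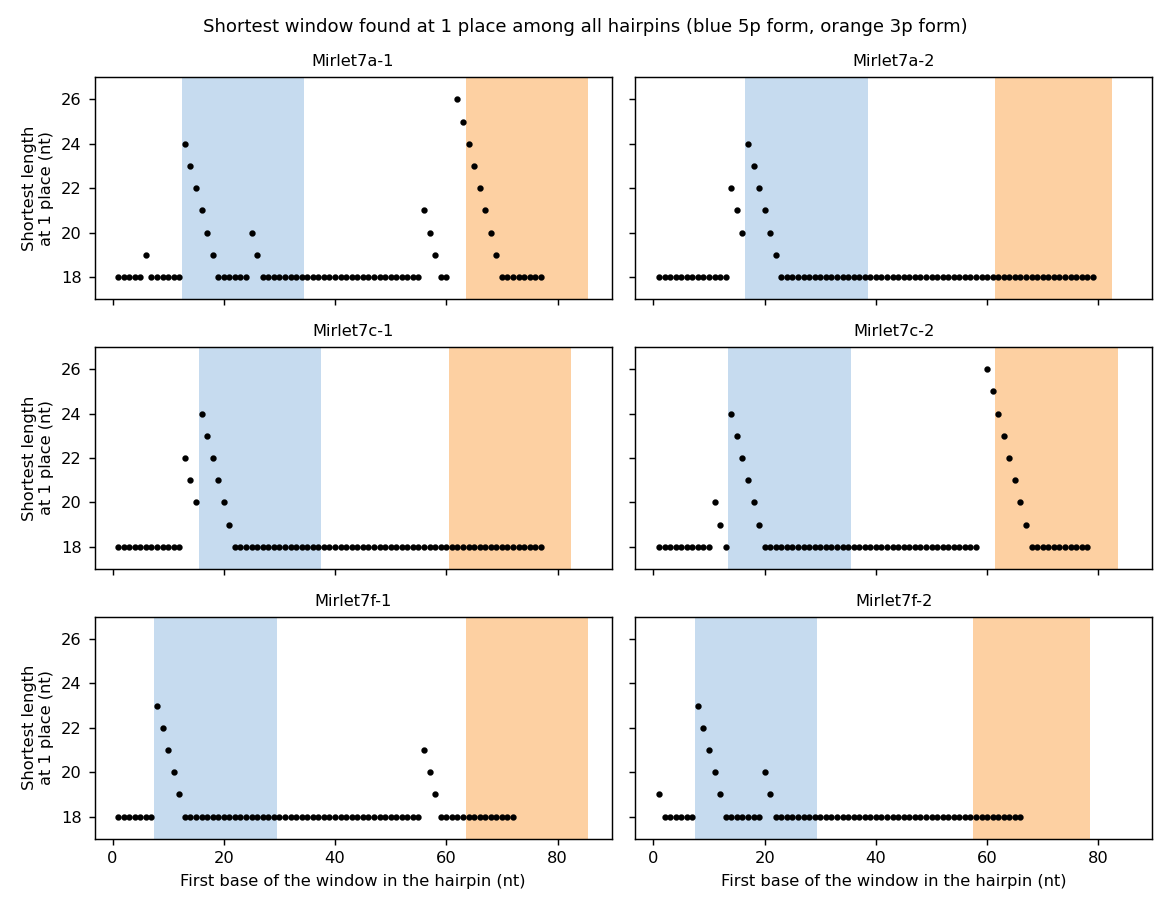
For each of the 6 hairpins, the shortest length in nt (18 to 26) at which a window starting at a given base is found at 1 place among all hairpins, with the 5p form shaded blue and the 3p form shaded orange. Windows that start at the first base of the 5p form need 23 or 24 nt in every panel, and the 3p form needs 24 nt in Mirlet7a-1 and Mirlet7c-2 but 18 nt in the others.

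Mirlet7a-1 and Mirlet7c-2, with both arms shared, had fewer windows of their own than their partners, and both had more counts than their partners in both hearts. In the let-7f pair the shares were alike, at 96.6% for both Mirlet7f-1 and Mirlet7f-2. The part of window uniqueness in the counts was not tested. In all 3 pairs the copy with more counts was the one whose first letter past the shared stretch is U, at base 24 in Mirlet7a-1 (A in Mirlet7a-2) and Mirlet7c-2 (A in Mirlet7c-1), and at base 23 in Mirlet7f-2 (G in Mirlet7f-1), counted from the start of the 5p form. This was seen after the counts were known, and its part in the counts was not tested.

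Members were also set beside the miRNA genes of their own cluster. These counts leave out reads placed at more than 1 position, which does not bear alike on all of the genes. A read of 22 nt from the first base of the 5p form was shared between hairpins for every member. For both arms of Mirlet7d, Mirlet7b and Mir98, 18 nt were enough to lie in 1 hairpin. The part of this in the ratios to neighbours was not tested. At the chromosome 13 locus, Mirlet7a-1 had 2112 and 1937 counts in replicates 1 and 2, against 150508 and 67111 for Mirlet7d, which is 71.3 and 34.6 times as many. Mirlet7f-1 lies between these genes, and Mirlet7d had 156 and 96.6 times its counts. Mirlet7d itself differed between the hearts, with a log2 ratio of replicate 1 over replicate 2 of 1.20, against 0.16 for Mirlet7a-1.

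Mirlet7c-1 showed a gap of like size to its neighbour Mir99a, which lies 657 bp away. Mir99a had 191778 and 147293 counts, 106 and 80.0 times those of Mirlet7c-1. Mirlet7c-2 had 4319 and 4410 counts against 170911 and 163521 for Mirlet7b, 39.6 and 37.1 times as many. For Mirlet7a-2, Mir100 at a distance of 5212 bp had 27855 and 21436 counts, 30.7 and 25.0 times as many.

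The gaps were small for 3 other neighbours. Mirlet7f-2 was counted above Mir98, with a log2 ratio of Mirlet7f-2 over Mir98 of 1.08 (1.05 to 1.11) in replicate 1 and 1.19 (1.16 to 1.23) in replicate 2. Mirlet7a-2 lay below Mir125b-1, with log2 ratios of -0.76 and -1.10, and Mirlet7c-1 lay above Mir125b-2, with log2 ratios of 0.40 and 0.95. Mir125b-1 and Mir125b-2 also share a mature form, and they lie 45115 bp and 46523 bp from their let-7 neighbours. Counts of different genes also depend on how each sequence is ligated and amplified, which was not measured here.

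The members stood high among the genes found with a duplicated mature form, many of which had 0 counts in both hearts. Of the 342 other genes found to carry a RefSeq mature form given by 2 or more genes, 40 (11.7%) had at least 10 counts in both hearts. The median was 50.5 CPM among those 40. All 6 let-7 members passed that minimum, with a median of 436 CPM. Of the 902 genes whose mature forms were found at 1 place, 267 (29.6%) passed, with a median of 81.8 CPM. Genes whose hairpin held none of the RefSeq mature forms used are in neither group. Mirlet7f-2 had the highest level of the genes found with a duplicated mature form, ahead of Mir92-1 (1995 ± 185 CPM). Mirlet7c-2, Mirlet7a-1 and Mirlet7c-1 held ranks 5 to 7. Medians over the genes that passed depend on the minimum, and no test was made.

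Each member was also compared between the hearts. On the TMM scale, which sets the bulk of genes equal between libraries, the members' log2 ratios of replicate 1 over replicate 2 ran from 0.01 to 0.51, with a median of 0.14 against 0.02 over all 375 genes tested. Mirlet7f-1 (964 and 695 counts) had a log2 ratio of 0.51 (95% interval 0.37 to 0.65, adjusted p = 2.91e-12, exact binomial test with Benjamini-Hochberg adjustment). By the same exact binomial test Mirlet7f-2 was at 0.25 (0.23 to 0.28, adjusted p = 1.36e-76) and Mirlet7a-1 at 0.16 (0.07 to 0.25, adjusted p = 0.000812). These 3 of the 6 members passed the threshold of 0.05, all of them higher in replicate 1.

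The test passed 55.2% of all genes tested (29.1% higher in replicate 1), and 89.7% of the 156 genes with a summed count of at least 1000, a minimum that all 6 members reached. The members' 3 of 6 lay near the first share and below the second, with no test of either difference. It compares these libraries and not conditions, and it counts sampling noise only. Mirlet7a-2 (0.12, -0.01 to 0.26, adjusted p = 0.13, exact binomial test), Mirlet7c-1 (0.01, -0.08 to 0.11, adjusted p = 0.869) and Mirlet7c-2 (0.01, -0.05 to 0.07, adjusted p = 0.869) did not pass. The median absolute log2 ratio was 0.14 over the members and 0.37 over all genes tested, and 37.3% of the genes tested lay at least as far from 0 as Mirlet7f-1. The genes tested include many with far fewer counts than the members, where counting error is larger. No median over genes of like depth was made. All 6 other let-7 genes passed, with a median of 0.19, Mirlet7e being the one lower in replicate 1 (-0.05).

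Markers of cell types also moved between the same libraries. The 7 heart muscle genes summed to 9699 CPM in replicate 1 and 6596 CPM in replicate 2, with log2 ratios of replicate 1 over replicate 2 of 1.05 for Mir208a, 0.33 for Mir499 and 0.19 for Mir208b. The heart muscle genes with low counts went both ways, at 1.46 for Mir133a-1, -0.08 for Mir1a-1 and -0.37 for Mir1a-2. Mir133a-2 had too few counts to be tested. The 2 red cell genes summed to 268 and 749.5 CPM, with log2 ratios of -2.64 for Mir144 and -1.25 for Mir451a, and the liver gene Mir122 was at -0.95. The 3 white cell genes summed to 889 and 864 CPM, with log2 ratios of -0.33 for Mir142, -0.12 for Mir223 and 0.06 for Mir150. The part of these markers in the ratios of Mirlet7f-1, Mirlet7f-2 and Mirlet7a-1 was not tested.

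**Figure D4:**
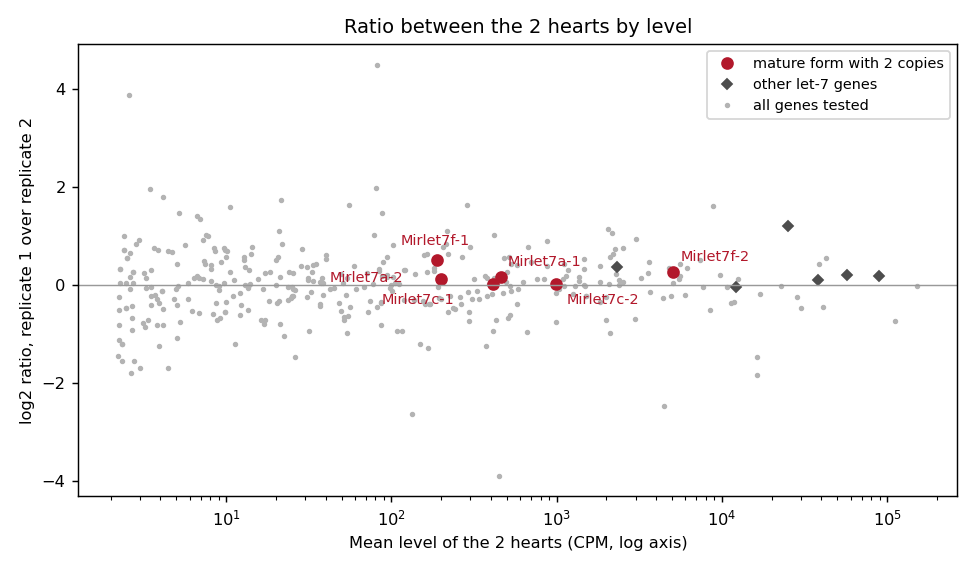
The log2 ratio of replicate 1 over replicate 2 against the mean level in CPM (log axis) for the 375 genes tested, with the 6 members in red and the other let-7 genes as diamonds. The members lie between 0.01 and 0.51, inside the cloud of all genes, while Mirlet7d lies at 1.20.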

How the data were processed

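The values are read counts per miRNA gene as deposited by the authors, 1 table per library, not normalized. Per the file headers they were made on mm10 with GENCODE M21 annotation. Which aligner and counter were run is not given in the sources used here. All 2202 gene IDs were matched to the M21 annotation by ID, and the gene-strand column was used. Library sizes exclude reads placed at more than 1 position and the other category rows. The 2 hearts form 1 group, and nothing beyond their biosample records says how the animals were chosen.

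CPM use as total the counts assigned to named genes, 4260561 in replicate 1 and 4583025 in replicate 2. At these depths a count of 0 allows up to 3 counts. Ratios within a library carry exact Clopper-Pearson intervals. Differences between the hearts were tested, for genes with a summed count of at least 20, with an exact two-sided binomial test given TMM library sizes (edgeR 4.0.16, R 4.3.3), with Benjamini-Hochberg adjustment at 0.05 over all genes tested, and ratios used a prior count of 0.5. Hairpin windows of 18 to 26 nt were counted by exact match among the 2202 hairpins of the table, since no genome sequence was used here. Mature forms and hairpins shown are from RefSeq (GRCm38.p6).

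The members, the lists and the tests were chosen with earlier results of these data known. The genes named are the members, the other let-7 genes, the miRNA genes within 10 kb of a member, Mir100, Mir125b-1, Mir99a and Mir125b-2, the nearest gene by level to each member, and tissue markers. Genes of other pairs were named after their values were seen. Alternatives were the unstranded column, all reads as the denominator, DESeq2 1.42.0 size factors, total counts, other count minimums, a prior count of 2, windows of 20 to 24 nt and leaving out each heart. Scripts ran in Python 3.11.15 with pandas 2.3.3, scipy 1.17.1 and numpy 2.4.6, and matplotlib 3.10.9 drew the figures.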

Additional observations from a re-analysis of the deposited data

Results flagged for a closer look

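The reads placed at more than 1 position, which no gene count includes, numbered 4193785 in replicate 1 and 3872896 in replicate 2, or 46.8% and 43.2% of the mapped reads. They stand out because they lie outside the counts reported above and far exceed the 34099 and 30391 counts of the 6 let-7 genes. Their part in let-7a, let-7c and let-7f was not tested, since the tables give only their total.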

How the results depend on the processing

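The summed level of the 6 genes, reported as 7317 CPM, was 10108 CPM without regard to strand and 3071 CPM with all reads as the denominator, because these settings change the total that counts are divided by. Without regard to strand Mirlet7f-1 had 0 counts, and its log2 ratio over Mirlet7f-2 became -12.86 or less, with 3 counts per library as the floor. The number of members passing the test between the hearts was 5 with total counts in place of TMM, against 3 as reported. The share of all genes tested that passed was 56.8% with total counts, against 55.2% as reported. The added genes were Mirlet7a-2 (0.19, adjusted p = 0.0124, exact binomial test) and Mirlet7c-2 (0.08, adjusted p = 0.0278, exact binomial test). That scaling moved the median of all genes to 0.08. Without regard to strand, 2 of the 5 members tested passed, as did 53.1% of all genes tested. With DESeq2 size factors the log2 ratios of Mirlet7c-1 and Mirlet7c-2 changed sign, to -0.025 (adjusted p = 0.710) and -0.030 (adjusted p = 0.443, exact binomial test), and the median of all genes was -0.02. These size factors came out at 1 for both libraries, so the ratios are those of unscaled counts. Over all genes, 186 to 213 passed under the alternatives that tested at least 5 members, against 207, but the number tested differed. At a summed count of 1 or more 26.2% of 768 genes passed. With a minimum of 100 it was 71.4% of 266, against 55.2% of 375 as reported. The share of windows at 1 place was 94.8% at 20 to 24 nt. Of 69 alternative values that keep both hearts, 48 were the same under the rule for their kind. For ratios between the hearts the rule was the same sign and side of the threshold, whatever the size. Levels, shares of let-7 counts and copy ratios had to lie within the SD of the reported value. Numbers of genes passing could differ by a set factor.

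Leaving out each heart in turn gave 6631 to 8003 CPM for the summed level, 3.11% to 3.25% for the share of let-7 counts, and log2 copy ratios of 1.18 to 1.22 for let-7a, -1.26 to -1.25 for let-7c and -4.89 to -4.64 for let-7f. Each end of these ranges is the value of the remaining heart alone, so the step adds no check of the results. No paired analysis was possible because both hearts belong to the same group. Depth limits the intervals of the smallest members, and the order of Mirlet7a-2 and Mirlet7f-1 differed between the hearts.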

Other observations

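Pairs of miRNA genes outside the let-7 family were looked at for the letter at which the copies part, after the order in the let-7 pairs had been seen. They were the pairs found to share a mature form of the RefSeq entries used. Of 13 such pairs with at least 10 counts of each copy in both hearts and a parting letter within the hairpin, 7 had U there in 1 copy alone. In 6 of these the order of the copies was the same in both hearts, and the copy with U had more counts in all 6 (Mir125b-1, Mir128-1, Mir138-1, Mir16-1, Mir181b-2 and Mir92-1). In the seventh, Mir26a, the order differed between the hearts, with 668 counts of Mir26a-1 and 401 of Mir26a-2 in replicate 1 and 30 and 340 in replicate 2. Where a copy fell under 10 counts in a heart, the pattern was not seen. Of 9 mature forms with U in 1 copy alone and the same order in both hearts, the copy with U had more counts in 4 and fewer in 5. No test was made, and the part of this letter in the counts was not tested.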
